A study of Homo sapiens with 24 samples.

Results

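Insulin, the insulin-like growth factors, leptin and adiponectin reach a cell through a small set of receptor genes, and 10 of these receptors, adaptors and binding proteins were followed here: INSR, IGF1R, IGF2R, IRS1, IRS2, LEPR, ADIPOR1, ADIPOR2, IGFBP3 and IGFBP6. They were chosen by name as the rows whose Ensembl identifier maps to one of these symbols, 1 row each, and are 10 of 61860 identifiers in the count tables. RNA-seq was read in 4 experiments on OE33, a human esophageal adenocarcinoma (EAC) cell line, each with 3 treated and 3 control libraries, 24 in all. In the first, OE33 cells were grown under the skin of male BALB/c-nu nude mice, bought at 4 weeks of age, that were given a high-fat diet (HFD, 35% fat) or a normal diet (ND, 4.3% fat) for 8 weeks before the injection, and tumors were taken 21 days after it. In the other 3, cultured OE33 cells were transfected with a plasmid for HA-tagged TRIM15 (HA-TRIM15) or the empty vector (EV) for 48 h, or with shYY2 or shFOXRED1, each with its own shControl, for 72 h. TRIM15 is an E3 ubiquitin ligase of the TRIM family, YY2 a zinc finger transcription factor and FOXRED1 a mitochondrial assembly factor of respiratory complex I. Nude mice lack mature T cells, all groups rest on 1 cell line, and which hairpin was sequenced and whether a library came from 1 animal or culture are not given in the sources used here, so p-values measure the spread between these libraries.

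Insulin binds the insulin receptor, INSR, and the insulin-like growth factors bind IGF1R; both are tyrosine kinases that phosphorylate the adaptors IRS1 and IRS2, which recruit PI3-kinase, so that AKT becomes active and FOXO transcription factors are kept out of the nucleus. IGF2R, the cation-independent mannose 6-phosphate receptor, has no kinase and carries IGF2 and lysosomal enzymes to lysosomes, while IGFBP3 and IGFBP6 are secreted proteins that hold the growth factors in the fluid around cells. LEPR signals through JAK2 and STAT3 when leptin from fat tissue binds, and ADIPOR1 and ADIPOR2 are the 2 receptors through which adiponectin, also from fat tissue, acts on AMP-activated kinase and PPARA; circulating insulin and leptin rise and adiponectin falls with obesity.

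Libraries held 14299807 to 45994561 counts. Below, CPM are counts per 1000000 after TMM scaling within an experiment, and a gene was called where edgeR's quasi-likelihood test gave an adjusted p (Benjamini-Hochberg, over all genes tested in that experiment) under 0.05. The targeted genes stood where the labels put them: TRIM15 had 111, 130 and 181 counts with HA-TRIM15 and 0 in each EV library, YY2 0.661 CPM with shYY2 against 2.35 with shControl, and FOXRED1 10.1 CPM with shFOXRED1 against 17.4 with shControl. All 8 epithelial markers (EPCAM, KRT8, KRT18, KRT19, CDH1, CLDN4, ERBB2, CDX2) were above 1 CPM in every group. Of 31 markers of adipocytes, fibroblasts, endothelium and leukocytes, COL1A1, ESAM, ITGAM and CD14 were above 1 CPM in every group; the other 27 reached at most 0.765 CPM in any xenograft and 2.56 CPM (CFD) in any library.

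Among the 10 genes, IGFBP3 had the highest and INSR the lowest level in all 8 groups. On a scale of counts per kilobase of merged exons, divided by their sum over all genes with a length and given as parts per 1000000 (per-length level), IGFBP3 averaged 561 ± 8.50 (SD, n = 3) in ND xenografts, ADIPOR1 212 ± 4.88, IGF2R 130 ± 1.64, IGFBP6 112 ± 8.01, IRS1 97.3 ± 3.62, ADIPOR2 74.9 ± 2.40, IGF1R 35.1 ± 1.06, IRS2 19.3 ± 0.768, LEPR 3.56 ± 0.319 and INSR 0.0963 ± 0.0569. LEPR was the ninth of the 10 in every group. In ND, HFD, EV, shYY2 and the shControl of the YY2 experiment no 2 neighbours in this order overlapped between libraries. The order was less distinct with HA-TRIM15, where IGF2R, IGFBP6, IRS1 and ADIPOR2 followed each other with overlapping libraries, and IGFBP6 overlapped ADIPOR2 with shFOXRED1 and ADIPOR1 overlapped IRS1 in its shControl. Hence these tumor cells held IGF1R messenger RNA (mRNA) at a per-length level far above that of INSR: the ratio of INSR to IGF1R was 0.00277 ± 0.00170 (SD, n = 3) in ND and 0.0145 ± 0.00512 in the shControl of the FOXRED1 experiment, the control group with the highest ratio.

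The genes for the ligands were nearly silent. INS had 0 counts in every library, LEP and ADIPOQ at most 1 count, IGF1 at most 2 and IGF2 at most 10 counts in any library. Of 19 ligand and further binding protein genes in the related list, 4 were tested in all experiments: NAMPT, IGFBP1, IGFBP4 and STC1.

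To ask how diet, TRIM15, YY2 and FOXRED1 each moved this set, every treated group was compared with its own control. In HFD xenografts 6 of the 9 genes tested were called higher (25.6% of 17012 genes tested were) and 1 lower (23.9%). With HA-TRIM15, 1 of 9 was called higher (12.5% of 15745 genes) and 1 lower (9.53%). With shYY2, 7 of the 9 genes other than INSR were called higher (36.8% of 16006 genes) and 1 lower (38.1%), and with shFOXRED1 2 of 10 were called higher (16.8% of 15730 genes) and 3 lower (19.7%). INSR was under the count filter in the first 2 experiments and passed it with shYY2 only through the treated libraries, so it is left out of the counts there. The median log2 fold change of the genes tested was 0.21 in HFD, 0.021 with HA-TRIM15, 0.25 with shYY2 and -0.082 with shFOXRED1, beside -0.012, -0.0065, -0.0081 and 0.012 over all genes. Treated and control libraries lay apart, with no shared range, for all 9 genes tested in HFD (56.2% of all genes), 3 of 9 with HA-TRIM15 (37.7%), 8 of 9 with shYY2 (76.3%) and 8 of 10 with shFOXRED1 (46.7%).

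INSR mRNA was barely detected in the xenografts and in the TRIM15 experiment. It had 3, 3 and 5 counts in HFD and 3, 9 and 8 in ND libraries, and 2, 1 and 3 with HA-TRIM15 against 0, 0 and 1 with EV. Both were under the count filter; without it edgeR's adjusted p was 0.574 and 0.269. With shYY2 INSR had 28, 25 and 29 counts against 0, 0 and 2 with shControl. These groups lay apart, at 1.59 ± 0.104 CPM (SD, n = 3) and 0.0336 ± 0.0582 CPM, and the ratio of the summed counts, 82 against 2, was 43.7 (95% exact interval 11.7 to 367, counting error only) after scaling for depth. INSR passed the count filter of this experiment only through its shYY2 libraries, so no p is given. Even so, its per-length level with shYY2 was 0.692 ± 0.0437 (SD, n = 3), the lowest of the 10. In the FOXRED1 experiment INSR had 40, 34 and 40 counts with shFOXRED1 and 28, 30 and 14 with shControl; the groups overlapped (log2 fold change 0.58 ± 0.30 SE, edgeR adjusted p = 0.147). Here the control libraries already held 14 to 30 counts, against 0 to 2 in the shControl of the YY2 experiment.

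IGF1R, the kinase receptor of the pair with the far higher per-length level in these cells, rose with HFD and with shYY2 and fell with shFOXRED1. In HFD libraries it stood at 129, 127 and 121 CPM and in ND at 108, 112 and 106 CPM, every HFD value above every ND value (log2 fold change 0.21 ± 0.038 SE, edgeR adjusted p = 0.000274). In bulk RNA, here and below, fewer cells of a type and less RNA per cell cannot be told apart. With shYY2 IGF1R was at 207, 208 and 207 CPM against 104, 102 and 101 CPM with shControl. That is a 2.03-fold rise with replicates within a few CPM of each other (log2 fold change 1.02 ± 0.029 SE, edgeR adjusted p = 4.69e-14). With shFOXRED1 it was at 118, 118 and 116 CPM against 139, 136 and 137 CPM, a fall by 0.23 ± 0.054 SE on the log2 scale (edgeR adjusted p = 0.00262). HA-TRIM15 and EV libraries overlapped, both at a mean of 104 CPM (log2 fold change 0.002 ± 0.037 SE, edgeR adjusted p = 0.980).

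IGF2R, the sorting receptor, had small changes. It was at 478, 462 and 461 CPM in HFD and 517, 520 and 512 CPM in ND libraries, lower by 0.14 ± 0.033 SE on the log2 scale (edgeR adjusted p = 0.00159). With shYY2 it was at 492, 499 and 488 CPM and with shControl at 527, 539 and 509 CPM. These groups did not overlap either, but the difference was only -0.089 ± 0.028 SE in log2 (edgeR adjusted p = 0.00998), and with genes kept at 10 or more counts in every library it was -0.064 (edgeR adjusted p = 0.0514). With HA-TRIM15 (492 against 485 CPM) and shFOXRED1 (749 against 762 CPM) the libraries overlapped, with edgeR adjusted p of 0.667 and 0.702. So IGF1R and IGF2R, both receptors of IGF2, were called in opposite directions in HFD and with shYY2.

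IRS1 and IRS2, the adaptors below INSR and IGF1R, did not move alike. IRS1 rose from 211, 224 and 212 CPM in ND to 237, 247 and 237 CPM in HFD (log2 fold change 0.15 ± 0.037 SE, edgeR adjusted p = 0.00241). This call was lost where libraries were scaled by total counts alone (0.044, edgeR adjusted p = 0.333). It also rose with shYY2, to 255, 248 and 254 CPM from 220, 219 and 218 CPM (log2 fold change 0.21 ± 0.028 SE, edgeR adjusted p = 5.62e-06). In the other 2 experiments IRS1 fell. It was at 271, 271 and 248 CPM with shFOXRED1 against 337, 330 and 314 CPM (log2 fold change -0.31 ± 0.053 SE, edgeR adjusted p = 0.000178). With HA-TRIM15 it was at 244, 231 and 223 CPM against 248, 255 and 256 CPM with EV (log2 fold change -0.12 ± 0.036 SE, edgeR adjusted p = 0.0256). Leaving out HA-TRIM15 replicate 2 or 3 or any of the EV replicates took that call away, with edgeR adjusted p of 0.0512 to 0.0998.

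IRS2 was higher in 3 of the 4 experiments. HFD libraries held 45.7, 50.1 and 47.7 CPM and ND libraries 35.6, 35.6 and 33.5 CPM, a 1.37-fold rise (log2 fold change 0.45 ± 0.048 SE, edgeR adjusted p = 9.81e-07). With shYY2 it doubled, from 42.6, 46.7 and 40.9 CPM to 89.0, 92.7 and 94.2 CPM (2.13-fold, log2 fold change 1.09 ± 0.046 SE, edgeR adjusted p = 4.85e-12). Libraries with shFOXRED1 were at 84.5, 85.4 and 85.7 CPM against 65.1, 63.2 and 63.5 CPM (1.33-fold, log2 fold change 0.41 ± 0.060 SE, edgeR adjusted p = 3.65e-05). Only with HA-TRIM15 did treated and control libraries overlap, at 29.8 and 27.7 CPM (log2 fold change 0.10 ± 0.067 SE, edgeR adjusted p = 0.300). An antisense gene, AL162497.1, overlaps 115 bases of the IRS2 exons and had 9 counts over all 24 libraries.

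The balance of the 2 adaptors, IRS2 over IRS1 in per-length level within a library, was higher in the treated group of every experiment. It was 0.243 ± 0.00651 (SD, n = 3) in HFD and 0.198 ± 0.00752 in ND, and 0.157 ± 0.00506 with HA-TRIM15 and 0.134 ± 0.00800 with EV. The gap was widest with shYY2, at 0.446 ± 0.0164 against 0.242 ± 0.0164 with shControl, followed by 0.396 ± 0.0220 with shFOXRED1 against 0.239 ± 0.00714. Treated and control libraries did not overlap in any of the 4; an exact permutation test (two-sided, 3 against 3 libraries) gave p = 0.10 each time, the smallest it can give. With HA-TRIM15 and shFOXRED1 the IRS1 fall entered this ratio, and with HFD and shYY2 both adaptors rose and IRS2 rose more.

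**Figure D1:**
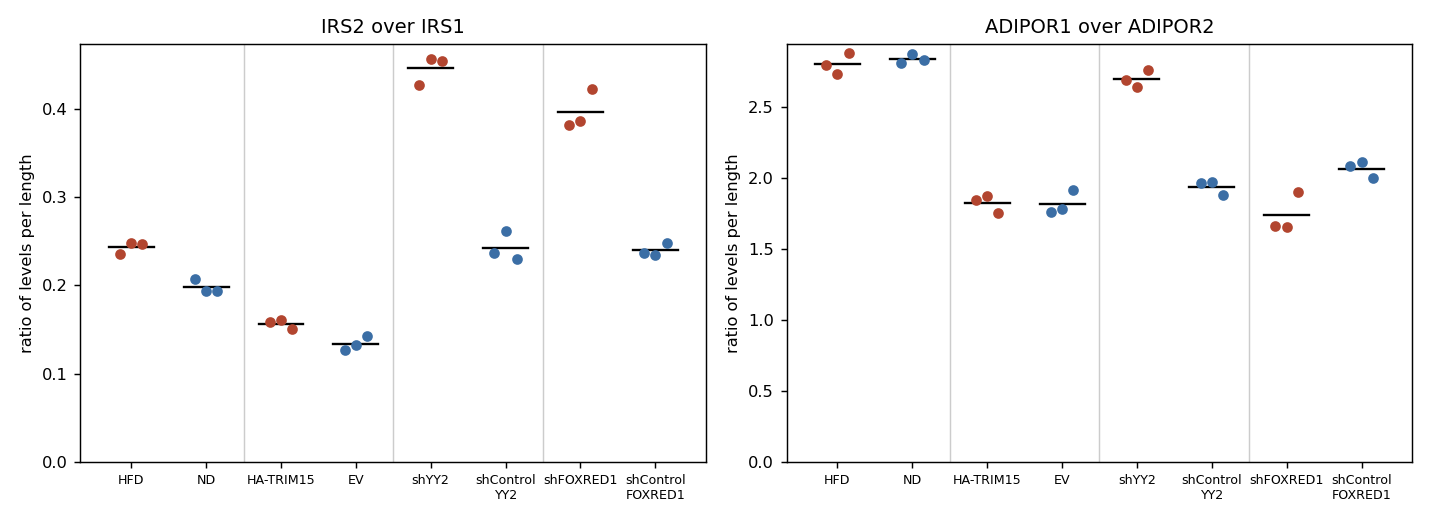
Ratio of per-length levels within each library (y axis, from 0) for IRS2 over IRS1 (left) and ADIPOR1 over ADIPOR2 (right) in the 8 groups; points are libraries, bars means of 3, red treated and blue control. The IRS2 over IRS1 ratio is above its control in all 4 experiments, whereas ADIPOR1 over ADIPOR2 is above it with shYY2 (2.70 against 1.94) and below it with shFOXRED1 (1.74 against 2.06).

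LEPR, the leptin receptor, was called in 3 of the 4 experiments. HFD xenografts held 16.1, 16.4 and 14.0 CPM and ND xenografts 8.24, 9.84 and 8.98 CPM, so every HFD library exceeded every ND library (1.69-fold, log2 fold change 0.75 ± 0.088 SE, edgeR adjusted p = 2.40e-06). With shYY2 LEPR was at 52.2, 54.4 and 48.5 CPM against 7.69, 7.80 and 6.96 CPM with shControl. This 6.92-fold rise (log2 fold change 2.79 ± 0.070 SE, edgeR adjusted p = 1.35e-14) was the largest among the members with more than 10 counts in every library. With shFOXRED1 it fell, to 5.99, 5.41 and 6.77 CPM from 10.5, 7.50 and 8.63 CPM (log2 fold change -0.56 ± 0.16 SE, edgeR adjusted p = 0.00922), a call that was lost without shControl replicate 1, the highest control library (-0.42, edgeR adjusted p = 0.0747). HA-TRIM15 libraries, at 5.94, 5.98 and 8.47 CPM, overlapped those with EV, at 6.22, 7.91 and 6.56 CPM (log2 fold change -0.03 ± 0.14 SE, edgeR adjusted p = 0.914).

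LEPROT, which encodes an endosomal protein that lowers leptin receptor at the cell surface, starts at the same place as LEPR and shares 165 exonic bases with it, so counts could be split between them by the authors' counting. In HFD the 2 genes were called in opposite directions: LEPROT was lower, at 108 ± 2.77 CPM (SD, n = 3) against 129 ± 3.38 CPM (log2 fold change -0.25 ± 0.037 SE, edgeR adjusted p = 3.88e-05). With shYY2 it rose to 136 ± 4.09 CPM from 103 ± 5.58 CPM (log2 fold change 0.40 ± 0.039 SE, edgeR adjusted p = 1.66e-07), beside 2.79 ± 0.070 SE for LEPR. Its log2 fold change was 0.011 ± 0.039 SE with HA-TRIM15 and -0.15 ± 0.058 SE with shFOXRED1, with edgeR adjusted p of 0.884 and 0.0519.

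The sequence before the start they share is shown because the 2 genes moved in opposite directions in HFD from 1 promoter window, and those of INSR and IRS2 because these 2 and LEPR had the largest rises with shYY2. Each is the 250 bases before the RefSeq start (GRCh38.p14), with every GGGCGG (GC box, bound by SP1-like factors), read on both strands and overlaps included, in capitals. RefSeq gives 12 windows for 9 of the 10 genes, those of ADIPOR1 and of LEPR partly overlapping.
LEPR and LEPROT, chr1:65420418-65420667, plus strand: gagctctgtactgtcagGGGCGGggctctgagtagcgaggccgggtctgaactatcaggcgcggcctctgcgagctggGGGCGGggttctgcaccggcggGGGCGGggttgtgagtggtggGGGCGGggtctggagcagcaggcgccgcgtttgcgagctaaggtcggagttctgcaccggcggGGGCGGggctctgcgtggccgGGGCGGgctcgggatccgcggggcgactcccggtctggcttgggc
INSR, chr19:7294415-7294664, minus strand: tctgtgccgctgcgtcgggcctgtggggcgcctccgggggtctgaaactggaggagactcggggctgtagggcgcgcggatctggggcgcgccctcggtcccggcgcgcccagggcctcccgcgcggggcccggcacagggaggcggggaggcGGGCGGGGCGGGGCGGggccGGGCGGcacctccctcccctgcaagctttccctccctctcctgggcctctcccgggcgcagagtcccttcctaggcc
IRS2, chr13:109786584-109786833, minus strand: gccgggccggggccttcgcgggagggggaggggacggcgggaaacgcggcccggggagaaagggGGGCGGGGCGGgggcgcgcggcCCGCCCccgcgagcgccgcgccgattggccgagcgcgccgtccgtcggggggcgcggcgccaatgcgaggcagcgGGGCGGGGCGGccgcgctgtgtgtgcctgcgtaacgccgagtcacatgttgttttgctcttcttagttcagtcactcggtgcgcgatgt
GGGCGG occurred 6 times before LEPR and LEPROT, 4 times before INSR and 5 times before IRS2, and in 11 of the 12 windows of the members, beside 42.6% of 35116 windows of all genes. The letters CCATNTT, the core that factors of the YY family read, were in none of the 12 windows on either strand, beside 11.6% of all windows. GTAAACA, the forkhead core, was in 2 of the 12, 1 of 3 ADIPOR1 windows and that of IGFBP6, beside 2.98% of all. The 12 windows were 61.2 to 81.2% G or C, and the windows of all genes were not matched to them for this. These matches describe letters only, and binding was not measured here.

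The adiponectin receptors were seldom called. ADIPOR1 was called in 1 experiment, with shYY2, where it rose from 130, 129 and 125 CPM to 175, 174 and 176 CPM (1.37-fold, log2 fold change 0.45 ± 0.029 SE, edgeR adjusted p = 9.37e-10). ADIPOR2 was called in none of the 4 with all libraries and TMM scaling. It was called higher by edgeR without HA-TRIM15 replicate 1 (0.10, adjusted p = 0.0252), and with shFOXRED1 under scaling by total counts (0.17, adjusted p = 0.0318) or without shFOXRED1 replicate 3 (0.15, adjusted p = 0.0172). With shYY2 its libraries overlapped those with shControl, at 120, 121 and 118 against 122, 120 and 122 CPM (log2 fold change -0.025 ± 0.030 SE, edgeR adjusted p = 0.454). The per-length ratio of ADIPOR1 to ADIPOR2 therefore went from 1.94 ± 0.0497 (SD, n = 3) to 2.70 ± 0.0604 with shYY2, with libraries apart. With shFOXRED1 the ratio was lower, 1.74 ± 0.143 against 2.06 ± 0.0555, while neither gene was called alone: ADIPOR1 had a log2 fold change of -0.14 ± 0.058 SE and ADIPOR2 one of 0.11 ± 0.060 SE, with edgeR adjusted p of 0.0714 and 0.152. Without shFOXRED1 replicate 3 both were called (-0.17 and 0.15, edgeR adjusted p = 0.0111 and 0.0172). In HFD the log2 fold changes were 0.065 ± 0.035 SE for ADIPOR1 and 0.083 ± 0.039 SE for ADIPOR2, and with HA-TRIM15 0.078 ± 0.039 SE and 0.077 ± 0.036 SE, with edgeR adjusted p of 0.137, 0.0897, 0.173 and 0.139.

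IGFBP3, the main carrier of the insulin-like growth factors in blood, was the only one of the 10 called higher in all 4 experiments. It rose from 575, 573 and 564 CPM in ND to 855, 826 and 849 CPM in HFD (1.48-fold, log2 fold change 0.56 ± 0.032 SE, edgeR adjusted p = 5.60e-10). With HA-TRIM15 it was at 385, 405 and 408 CPM against 306, 298 and 308 CPM with EV (1.31-fold, log2 fold change 0.39 ± 0.032 SE, edgeR adjusted p = 8.88e-07). It was the one gene of the set called higher in that experiment. With shYY2 the values were 607, 607 and 593 CPM against 517, 509 and 499 CPM (1.19-fold, log2 fold change 0.25 ± 0.026 SE, edgeR adjusted p = 4.56e-07). With shFOXRED1 they were 6984, 7067 and 7110 CPM against 5214, 5266 and 5145 CPM (1.35-fold, log2 fold change 0.44 ± 0.032 SE, edgeR adjusted p = 1.44e-08). In each experiment the lowest treated library exceeded the highest control library.

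IGFBP6, which binds IGF2 in preference to IGF1, rose in 2 experiments. It was at 42.1, 46.2 and 40.0 CPM in HFD against 31.9, 36.3 and 32.8 CPM in ND (log2 fold change 0.33 ± 0.060 SE, edgeR adjusted p = 0.000281), and at 52.4, 48.6 and 47.9 CPM with shYY2 against 44.3, 45.4 and 41.5 CPM (log2 fold change 0.18 ± 0.050 SE, edgeR adjusted p = 0.00328). In the other 2 the treated libraries were uneven. With HA-TRIM15 it was at 39.1, 32.4 and 30.8 CPM against 37.1, 37.2 and 39.7 CPM, and with shFOXRED1 at 29.7, 24.7 and 20.2 CPM against 30.1, 29.9 and 30.3 CPM (log2 fold changes -0.15 ± 0.072 and -0.27 ± 0.11 SE, edgeR adjusted p of 0.161 and 0.0637). In both, replicate 1 was the treated library nearest the controls, and without it IGFBP6 was called lower, by 0.27 with HA-TRIM15 and by 0.42 with shFOXRED1 on the log2 scale (edgeR adjusted p = 0.000731 and 0.00527).

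The 2 shControl groups, both OE33 cells 72 h after transfection, differed from each other in these genes. On a scale over all 24 libraries IGFBP3 was at 504 CPM in the shControl of the YY2 experiment and at 5177 CPM in that of the FOXRED1 experiment, a ratio of 10.3. IRS1 was at 217 and 325 CPM, IRS2 at 43.0 and 63.6 CPM, IGF2R at 521 and 757 CPM and IGF1R at 101 and 137 CPM, each higher in the latter. INSR, at 0.0334 and 1.49 CPM, also stood apart. ADIPOR1, ADIPOR2 and IGFBP6 were lower in the FOXRED1 experiment, with ratios of 0.843, 0.791 and 0.691, and LEPR, at 7.42 and 8.82 CPM, was the only member whose 2 control groups overlapped. Experiment and culture cannot be told apart here, so these ratios carry no test, and the cells in which FOXRED1 was lowered began from other levels than those in which YY2 was lowered.

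To ask whether the responses themselves differed, 2 pairs of experiments were fitted together. The change in HFD xenografts exceeded that with HA-TRIM15 for 6 of 9 genes (21.5% of 17160 genes tested) and lay below it for 1 (13.6%). LEPR differed most, by 0.82 ± 0.17 SE in log2 fold change (edgeR adjusted p = 0.000840), followed by IGFBP6 at 0.51 ± 0.10 SE, IRS2 at 0.38 ± 0.084 SE, IRS1 at 0.31 ± 0.052 SE, IGF1R at 0.23 ± 0.052 SE and IGFBP3 at 0.20 ± 0.044 SE (edgeR adjusted p from 9.33e-05 for IRS1 to 0.00139 for IGF1R). IGF2R was the one below, at -0.13 ± 0.042 SE (edgeR adjusted p = 0.0164), and the adiponectin receptors had differences of 0.017 ± 0.052 and 0.036 ± 0.053 SE. Scaled by total counts alone, IGF1R and IGFBP3 lost their calls (0.12 and 0.092, edgeR adjusted p = 0.0747 and 0.123), and without a count filter IGF2R did (edgeR adjusted p = 0.0933). The xenografts grew in mice and the TRIM15 cells in culture, and TRIM15 itself had 14, 12 and 24 counts in HFD, 1, 0 and 0 in ND and 111 to 181 with HA-TRIM15.

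The change with shYY2 exceeded that with shFOXRED1 for 6 of the 9 genes other than INSR (26.4% of 17146 genes tested) and lay below it for 1 (28.0%). INSR is left out because the shControl libraries of the YY2 experiment held at most 2 counts. FOXRED1 mRNA itself was lower in both experiments. It was at 17.7 CPM with shYY2 against 32.8 CPM with shControl, and at 10.1 CPM with shFOXRED1 against 17.4 CPM. For LEPR the difference in log2 fold change was 3.36 ± 0.16 SE (edgeR adjusted p = 2.53e-13) and for IGF1R 1.25 ± 0.056 SE (edgeR adjusted p = 6.24e-14), both genes having risen with shYY2 and fallen with shFOXRED1. IRS1, which moved in opposite directions as well, differed by 0.52 ± 0.060 SE, and IRS2, which rose in both, by 0.67 ± 0.073 SE (edgeR adjusted p = 2.11e-07 and 6.97e-08). ADIPOR1 and IGFBP6 differed by 0.59 ± 0.061 and 0.45 ± 0.13 SE (edgeR adjusted p = 3.25e-08 and 0.00425). IGFBP3 rose less with shYY2 than with shFOXRED1, by -0.19 ± 0.042 SE (edgeR adjusted p = 0.000472, 0.0549 without a count filter), and IGF2R and ADIPOR2 were not called (-0.066 ± 0.051 and -0.14 ± 0.064 SE, edgeR adjusted p = 0.290 and 0.0686).

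The wider pathway was read from 8 lists with 153 genes in all, chosen by role with earlier results of these data known. SOCS3, PTPN1, PTPN2 and SH2B1 are in both the adaptor and the leptin receptor signalling list, so these lists are not separate results. In HFD xenografts 49 of the 133 genes tested were called higher (36.8%, beside 25.6% of all genes) and 33 lower (24.8%, beside 23.9%), which became 33 and 51 where libraries were scaled by total counts alone. Adaptors and receptor inhibitors had 12 of 22 higher and 1 lower (median log2 fold change 0.13), and leptin receptor signalling 8 of 13 higher and 3 lower (0.27), beside a median of -0.012 over all genes. SOCS3, an inhibitor in both of these lists, rose 2.59-fold, from 101 ± 7.02 to 262 ± 5.17 CPM (SD, n = 3; log2 fold change 1.37 ± 0.045 SE, edgeR adjusted p = 1.17e-12). IGFBP1, a secreted carrier that FOXO factors switch on and insulin switches off, rose 1.85-fold to 49.9 CPM, NAMPT, an enzyme of NAD synthesis also secreted by fat tissue, 1.74-fold to 2102 CPM, and PAQR3, a Golgi relative of the adiponectin receptors, 1.77-fold to 25.1 CPM. PPARGC1A, a coactivator of mitochondrial genes, and PPP1R3C, a glycogen targeting subunit, fell by 0.84 and 0.86 on the log2 scale, to 9.11 and 1.84 CPM. These 6 had edgeR adjusted p of 0.000181 or less. IGF2R sorting genes had 3 of 14 higher and 7 lower (median -0.10), PI3K-AKT genes 11 of 33 and 10 (0.031), FOXO factors and targets 7 of 20 and 6 (-0.0026), adiponectin receptor signalling 4 of 19 and 2 (-0.0097), glucose uptake genes 4 of 11 and 4 (0.02), and 3 of 5 ligands and binding proteins were higher (0.38).

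Xenografts can hold mouse host cells, and the sums of fibroblast, leukocyte and endothelial markers lay apart between the diets. The genes that carry these sums were also read in the OE33 cultures. Group means in the cultures were 10.6 to 42.7 CPM for COL1A1 and 15.6 to 25.1 CPM for ESAM. They were 4.93 to 15.3 CPM for ITGAM and 2.38 to 9.63 CPM for CD14. A difference in these sums therefore does not by itself show a difference in host cells. Summed fibroblast markers (1 of 8 above 1 CPM) ran from 23.7 to 27.1 CPM in HFD and from 30.5 to 33.5 CPM in ND, nearly all COL1A1, and summed leukocyte markers (2 of 8) from 14.7 to 14.8 and from 15.7 to 17.2 CPM, nearly all ITGAM and CD14. Endothelial sums (1 of 7) were 16.9 to 19.6 and 15.5 to 16.4 CPM, nearly all ESAM, and adipocyte sums 0.630 to 1.04 and 0.712 to 0.879 CPM. The 27 markers other than COL1A1, ESAM, ITGAM and CD14 reached at most 0.765 CPM in any xenograft. These counts stand under human gene identifiers, so they cannot show how many mouse cells the tumors held. How reads of mouse origin were handled is not given in the sources used here, and their part in the HFD values was not tested.

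With HA-TRIM15 31 of 132 related genes were called higher (23.5%, beside 12.5% of all genes) and 19 lower (14.4%, beside 9.53%). FOXO factors and targets had 8 of 20 higher and the other 12 not called (median 0.14, -0.0065 over all genes), and leptin receptor signalling 4 of 13 higher and 1 lower (0.022). TXNIP, an inhibitor of glucose uptake, rose 3.02-fold, from 186 ± 0.246 to 560 ± 12.2 CPM (SD, n = 3; log2 fold change 1.59 ± 0.031 SE, edgeR adjusted p = 5.50e-14). GADD45A, a growth arrest gene, rose 2.41-fold to 133 CPM, and SOCS3, as in HFD xenografts, rose 1.62-fold to 98.9 CPM. PDK4, which turns off pyruvate oxidation, rose 1.56-fold to 25.8 CPM, and 2 genes at low level, PIK3IP1, an inhibitor of PI3-kinase, and the glucose transporter SLC2A12, rose 2.01-fold and 1.68-fold to 2.79 and 2.31 CPM. These 6 had edgeR adjusted p of 0.00669 or less. Of the remaining lists, adaptors and inhibitors had 5 of 22 higher and 1 lower (-0.0077), PI3K-AKT genes 7 of 33 and 8 (0.035), adiponectin receptor signalling 4 of 19 and 2 (-0.0016), glucose uptake genes 1 of 10 and 2 (-0.025), IGF2R sorting genes 2 of 14 and 5 (-0.082) and ligands and binding proteins 1 of 5 and 1 (0.085). The related genes called lower ran from 9, with the second HA-TRIM15 library left out, to 31, with the first left out. Summed fibroblast markers were at 11.1 to 11.9 CPM with HA-TRIM15 and 12.1 to 13.4 CPM with EV, and leukocyte markers at 8.79 to 10.1 and 7.98 to 8.19 CPM; their part in these values was not tested.

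With shYY2 71 of 134 related genes were called higher (53.0%, beside 36.8% of all genes) and 38 lower (28.4%, beside 38.1%). Of 20 FOXO factors and targets 19 were called higher and 1 lower; their median log2 fold change was 1.37, beside -0.0081 over all genes. SESN3, a sestrin that restrains mTOR complex 1, rose 11.9-fold, from 1.39 ± 0.188 to 16.7 ± 0.855 CPM (SD, n = 3; log2 fold change 3.57 ± 0.12 SE, edgeR adjusted p = 4.34e-13). PDK4 rose 7.60-fold to 314 CPM, PIK3IP1 7.28-fold to 35.3 CPM and FOXO4, a forkhead factor itself, 6.93-fold to 24.1 CPM. SLC2A4, the insulin-regulated glucose transporter, was at 3.35 ± 0.202 CPM with shYY2 and at 0.357 ± 0.227 CPM with shControl. Its shControl mean was under the count filter, so it entered the test only through the shYY2 libraries, and no fold or p is given. It remains in the counts of related genes and of glucose uptake genes called higher. STC1, a secreted inhibitor of the protease that frees growth factors from their binding proteins, fell to 1.22 ± 0.104 from 8.51 ± 0.665 CPM (log2 fold change -2.80 ± 0.15 SE, edgeR adjusted p = 6.63e-11). INSR and IRS2 are themselves known FOXO targets and are not in that list, and a part of FOXO factors in their values was not tested. GADD45A was the member of the list that fell, by 0.72 on the log2 scale.

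Of the other lists with shYY2, leptin receptor signalling had 10 of 13 higher and 2 lower (median 0.40), with STAT3 at 0.73 and JAK2 at 0.41 in log2 fold change, both called higher by edgeR, and adaptors and receptor inhibitors 13 of 22 higher and 3 lower (0.27). PI3K-AKT genes had 13 of 33 higher and 14 lower (-0.057), near the shares over all genes. Adiponectin receptor signalling had 8 of 19 higher and 5 lower (0.11), insulin-regulated glucose uptake 5 of 12 and 5 (-0.034), IGF2R sorting 6 of 14 and 6 (-0.036), and 3 of 5 ligands and binding proteins were lower (-0.53). Of these, STAT3, JAK2 and GADD45A were picked after their values were seen. The COL1A1-led fibroblast sum was 42.4 to 43.9 CPM with shYY2 and 10.5 to 11.2 CPM with shControl. The adipocyte sum was 1.56 to 4.02 and 0.555 to 0.768 CPM, mostly CFD (1.29 ± 1.11 and 0.371 ± 0.144 CPM, SD, n = 3) and PLIN1 (0.987 ± 0.349 and 0.236 ± 0.0163 CPM). The leukocyte sum was 9.90 to 10.7 and 14.3 to 15.7 CPM. These are cultures of 1 line, and the part of these markers in the values was not tested.

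With shFOXRED1 38 of 135 related genes were called higher (28.1%, beside 16.8% of all genes) and 29 lower (21.5%, beside 19.7%). FOXO factors and targets had 9 of 20 higher and 2 lower (median 0.25, 0.012 over all genes); TNFSF10, a death ligand, rose 1.93-fold to 54.7 CPM. CAV1, a caveolin, which forms small membrane pits and binds the insulin receptor, fell from 183 ± 1.67 to 67.5 ± 3.61 CPM (SD, n = 3; log2 fold change -1.44 ± 0.059 SE, edgeR adjusted p = 1.61e-11). PAQR5, a membrane progestin receptor of the adiponectin receptor family, fell by 1.70 on the log2 scale to 1.73 CPM, and IGFBP2, a binding protein gene under 2 CPM in both groups, by 1.26. CISH, a cytokine signal inhibitor, rose 1.95-fold to 1.59 CPM, and these 5 had edgeR adjusted p of 0.0325 or less. The other lists stood at 5 higher and 5 lower of 22 adaptors and inhibitors, 7 and 9 of 33 PI3K-AKT genes, 3 and 3 of 13 leptin receptor signalling genes, 6 and 3 of 20 adiponectin receptor signalling genes, 3 and 5 of 11 glucose uptake genes, and 6 and 1 of 14 IGF2R sorting genes, while 2 of 6 ligands and binding proteins were lower. Summed fibroblast markers, again nearly all COL1A1, were at 38.4 to 41.8 CPM with shFOXRED1 and 24.2 to 25.5 CPM with shControl, and the CFD-led adipocyte sum at 0.776 to 2.92 and 0.385 to 0.612 CPM. Endothelial sums, at 17.9 to 22.7 against 23.2 to 28.1 CPM, and leukocyte sums, at 20.8 to 24.0 against 24.5 to 26.5 CPM, were lower; their part in these values was not tested.

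For each gene of the set the single gene most like it was sought by Pearson's r of log2 CPM over the 24 libraries, after the mean of each experiment was taken out. DENND3 came first for both IGF1R (r = 0.987) and LEPR (r = 0.981), and the others were WNT2B for INSR (0.962), FSCN1 for IRS1 (0.957), ANKRD27 for IRS2 (0.979), TMEM45B for ADIPOR1 (0.977), TMPRSS2 for IGFBP3 (0.976), ADAM8 for IGFBP6 (0.907), CEP89 for IGF2R (0.864) and ZDHHC9 for ADIPOR2 (0.744). The 6 libraries of an experiment share its treatment, so these values describe likeness over 4 contrasts rather than 24 independent points. ADIPOR2 had the weakest match of the 10. The INSR value rests on few counts, such as 28, 25 and 29 with shYY2 and 0, 0 and 2 with its shControl.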

How the data were processed

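RNA of OE33 xenografts and cultures was sequenced as poly(A) libraries (150 bp paired-end, DNBSEQ-T7). What the authors deposited are whole-number counts per gene in 4 tables of 6 columns, not normalized; the submitters' processing notes name hg38 and mm10 with no role, and the aligner, counter and handling of strand are not given in the sources used here. Gene lengths and overlaps came from GENCODE 29. Groups and replicate numbers were taken from the sample titles. Members and related lists were chosen with earlier results of these data known.

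Counts were analysed in R 4.3.3 with edgeR 4.0.16 (TMM, filterByExpr with a minimum count of 10 and total of 15, quasi-likelihood test, Benjamini-Hochberg over all genes tested), 6 libraries per fit and 12 for a difference between experiments; the code was tested on simulated data. SE is the log2 fold change over the square root of F. All 10 members were named, with the 6 related genes of largest change per experiment (adjusted p under 0.05, mean of at least 1 CPM, groups apart); 1 of these is not reported here. Alternatives used DESeq2 1.42.0 (size factors, Wald test), total counts, other filters, a replicate block and each library left out. Libraries held 14299807 to 45994561 counts, so a floor of 3 counts is under 1 CPM in each.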

Additional observations from a re-analysis of the deposited data

How the results depend on the processing

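Of 38 results for the members in the 4 experiments, 23 were called. Of these, 19 kept direction and call in every alternative run that tested them. The other 4 were lost in some, none reversed: IRS1 in HFD and with HA-TRIM15, IGF2R with shYY2 and LEPR with shFOXRED1. Their values are given beside them, and the cause was not tested. The 23 and the 19 include INSR with shYY2, which passed the filter only through its treated libraries. INSR was not tested there with at least 10 counts in every library. Scaling by total counts shifted the median log2 fold change of all genes in HFD from -0.012 to -0.12, and higher genes made up 30.4% of all calls there in place of 51.7%, 40.6% in place of 56.8% with HA-TRIM15, 57.3% in place of 46.1% with shFOXRED1 and 37.2% in place of 61.2% for HFD against HA-TRIM15. With it, members not called changed sign to -0.045 (ADIPOR1) and -0.027 (ADIPOR2) in HFD, -0.028 (IGF1R) and -0.009 (IGF2R) with HA-TRIM15, 0.033 (IGF2R) with shFOXRED1, and -0.093 (ADIPOR1) and -0.074 (ADIPOR2) in the difference between HFD and HA-TRIM15; related genes lower in HFD came to 51 in place of 33, and members lower in the difference between shYY2 and shFOXRED1 to 2 in place of 1. Without a filter, members lower with HA-TRIM15 came to 2, those lower in the 2 differences to 0 (IGF2R at an edgeR adjusted p of 0.0933 and IGFBP3 at 0.0549), and IGF1R with HA-TRIM15 to -0.011. With at least 10 counts in every library the count of members lower with shYY2 went from 1 to 0 (IGF2R, edgeR adjusted p = 0.0514), and ADIPOR1 in the difference between HFD and HA-TRIM15 was at -0.0062.

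Leaving out 1 library, members with HA-TRIM15 ran from 1 to 2 higher and from 0 to 2 lower, related genes lower there from 9 to 31 (9 without HA-TRIM15 replicate 2, 31 without HA-TRIM15 replicate 1, 10 to 12 without an EV replicate), related genes higher with shFOXRED1 from 25 (without shFOXRED1 replicate 2) to 44, and members lower in the difference between shYY2 and shFOXRED1 from 1 to 2 (ADIPOR2 joined without shFOXRED1 replicate 3). Uncalled values changed sign: IGF1R with HA-TRIM15 ran from -0.02 to 0.013, LEPR there from -0.21 to 0.078, and ADIPOR1 in the difference between HFD and HA-TRIM15 from -0.021 to 0.041. Leaving INSR out, a choice made after seeing the data, gives 7 members higher with shYY2 in place of 8, and 6 in place of 7 in the difference between shYY2 and shFOXRED1. Of the results not called, 5 were called in some alternative.

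Replicate numbers were not taken as pairing: deviations of same-numbered libraries correlated at -0.0724 to 0.0925 in the diet experiment, -0.0161 to 0.0197 in the TRIM15, -0.0461 to 0.143 in the YY2 and 0.0374 to 0.153 in the FOXRED1 experiment. With the replicate block 5 members in place of 3 were lower with shFOXRED1, ADIPOR1 and IGFBP6 being added (edgeR adjusted p = 0.0203 and 0.0156), and 2 in place of 1 in the difference between shYY2 and shFOXRED1 (ADIPOR2, 0.0312). Depth limits INSR, at 0 to 9 counts in 5 of the 8 groups.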
